A study of Mus musculus with 6 samples.

Results

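The genes described here are 39 imprinted genes that lie outside the Dlk1-Meg3 locus, chosen by name from the transcript tables of 6 mouse pituitary RNA-seq libraries. Of these, 38 were listed in at least 1 table, among 50348 annotated gene names in the series. Nespas was not analysed here, because no row carried that name. FPKM counts fragments per kilobase of a transcript and is relative to a library's mapped fragments. The value of a gene is the sum of FPKM over its annotated transcripts, divided by 1 scaling factor for each library, and is called scaled FPKM.

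Libraries came from the P7 Tshbcre-YFP cells (5 glands pooled, postnatal day 7), the adult Tshbcre-YFP cells (42 glands), the adult Ghcre-YFP cells (12 glands), the adult Lhbcre-YFP cells (7 glands), the P7 nontransgenic whole pituitary (8 glands) and 1 adult nontransgenic whole gland. Adults were 7 weeks old. In the sorted libraries a Cre driven by a hormone gene (Tshb, Gh or Lhb) switched on a YFP reporter at the ROSA locus, and the fluorescent fraction of collagenase-dispersed cells was collected, so a cell that once used the driver is included. Every group was a single library of total RNA depleted of ribosomal RNA, so the differences below carry no replicate error and no test, and the deposited bounds around a value cover the counting and assignment of fragments in that library.

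The other 5 libraries were deeper than that of the adult whole gland, by 1.15 times for P7 Tshbcre cells up to 2.73 times for Ghcre cells. The adult Ghcre table ended within chromosome 5 and listed 15 of the genes, so genes further on are called not listed there. As a check of the sorts, Tshb stood at 3001 scaled FPKM in P7 Tshbcre cells, against 61.0 in the P7 whole gland, and at 1075 in adult Tshbcre cells and 33.1 in the adult whole gland. Lhb, the luteinizing hormone beta subunit, reached 2198 in Lhbcre cells, against 637 in the adult whole gland. Adult Tshbcre cells also held Lhb, at 2904, and Cga, the alpha subunit shared by both hormones, at 6546. Hormones of other cell types were present in both Tshbcre libraries. Gh, the growth hormone of somatotropes, was at 3870 in P7 and 14806 in adult Tshbcre cells, and Prl, the prolactin of lactotropes, at 21.7 in P7 and 6546 in adult Tshbcre cells. Gh is not listed in the Ghcre, Lhbcre or adult whole tables, so the Ghcre sort could not be checked by its own hormone. Of the other somatotrope markers, Pappa2 was at 32.8 in Ghcre cells and 18.7 in the adult whole gland, and Pou1f1 at 40.3 and 39.0. The corticotrope marker Pomc was at 27.9 and 1555 there, and Cga at 18.7 and 805.

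Imprinted genes are transcribed mainly from the copy inherited from 1 parent, and the choice is kept by DNA methylation laid down in the germ line at control regions that serve whole clusters of genes. Many act on growth: paternally expressed members such as Igf2 tend to promote it, and maternally expressed members such as Cdkn1c, Igf2r and Grb10 tend to restrain it. Several clusters also carry a long non-coding RNA, such as H19, Kcnq1ot1 or Airn, and several of these genes fall in abundance after birth in many mouse organs. The tables hold summed fragments from both alleles, so nothing here bears on which allele was used.

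Sequences of the transcripts that the results turn on are shown first. H19, Igf2 and Mest, which stood higher at P7 in the whole gland, host microRNAs. Their mature forms are printed from RefSeq (GRCm38.p6), with the seed (bases 2 to 8) in capitals, and the 6 seeds are all different. The genes of the microRNAs themselves were at 0 in the 5 tables that list them as gene rows.
miR-675-5p (H19): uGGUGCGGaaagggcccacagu
miR-675-3p (H19): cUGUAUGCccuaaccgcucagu
miR-483-5p (Igf2): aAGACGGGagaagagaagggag
miR-483-3p (Igf2): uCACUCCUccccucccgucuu
miR-335-5p (Mest): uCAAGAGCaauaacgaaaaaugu
miR-335-3p (Mest): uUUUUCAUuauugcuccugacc

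Nnat has a long and a short spliced form, which divide its signal differently between libraries. They differ by an exon of 81 bases at chr2:157561213-157561293 (GRCm38, plus strand), shown in capitals between 24 bases of each neighbouring exon, from the GENCODE transcripts matched to the RefSeq names.
Nnat long form: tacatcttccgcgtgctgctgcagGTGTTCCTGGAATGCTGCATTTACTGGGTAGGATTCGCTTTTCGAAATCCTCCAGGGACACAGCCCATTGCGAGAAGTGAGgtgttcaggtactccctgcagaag
Nnat short form: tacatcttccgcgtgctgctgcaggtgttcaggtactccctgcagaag

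Promoter windows, 250 bases before to 50 after a RefSeq start (GRCm38.p6), are shown for Mest and Nnat, which were among the most abundant of the genes, and for the Igf2 start to which all annotated Igf2 signal was assigned in both P7 libraries. CG pairs, the bases that imprinting methylates, are in capitals. The windows are chr6:30737800-30738099 (plus strand) for Mest, chr2:157559828-157560127 (plus strand) for Nnat and chr7:142666767-142667066 (minus strand) for Igf2.
Mest promoter: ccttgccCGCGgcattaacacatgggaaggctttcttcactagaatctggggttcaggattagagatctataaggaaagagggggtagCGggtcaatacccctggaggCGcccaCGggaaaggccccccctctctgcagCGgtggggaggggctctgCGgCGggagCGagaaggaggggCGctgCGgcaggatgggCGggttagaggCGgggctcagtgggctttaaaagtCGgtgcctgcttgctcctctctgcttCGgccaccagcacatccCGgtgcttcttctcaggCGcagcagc
Nnat promoter: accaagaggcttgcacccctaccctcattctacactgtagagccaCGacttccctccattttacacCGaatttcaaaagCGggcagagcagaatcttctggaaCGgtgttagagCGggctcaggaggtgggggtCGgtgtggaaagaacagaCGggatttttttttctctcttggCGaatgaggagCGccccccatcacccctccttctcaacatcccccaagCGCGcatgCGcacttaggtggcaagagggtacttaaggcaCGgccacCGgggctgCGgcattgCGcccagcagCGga
Igf2 promoter: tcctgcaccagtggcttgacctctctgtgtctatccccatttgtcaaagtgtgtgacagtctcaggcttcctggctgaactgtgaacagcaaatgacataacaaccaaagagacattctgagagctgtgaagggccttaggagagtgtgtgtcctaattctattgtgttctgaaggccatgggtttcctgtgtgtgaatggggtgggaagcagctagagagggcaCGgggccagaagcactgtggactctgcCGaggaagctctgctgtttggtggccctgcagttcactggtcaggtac

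The Mest and Nnat windows hold 17 CG pairs each and the Igf2 window holds 2, against a median of 16.0 over the 47 windows found for 31 of the genes and of 7.00 over all 32851 windows in the table. The hexamer TGCCGC, the core of the motif bound by the imprint-keeping zinc finger protein ZFP57, was searched on both strands. It lay in 13 of the 47 windows (27.7%), the Mest and Nnat windows among them and the printed Igf2 window not, and in 11.6% of all windows. The 13 are not all separate places: they include overlapping Mest windows and a window shared by Snrpn and Snurf that is counted for each. The hexamer contains a CG pair itself, and a match describes letters only.

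Across the 6 libraries the set was led by Gnas and Nnat, and Mest and Peg3 came next in each of the 5 tables that list them. Of the genes, 18 stood at 1 scaled FPKM or more in all 5 tables other than the Ghcre table. Phlda2, Ascl2, Magel2, Mkrn3, Peg12 and Slc38a4, most of which are known for roles in placenta or brain, were above 0 in some library but under 1 in every one, the highest being Phlda2 at 0.777 in Lhbcre cells. Copg2, Peg13 and Mcts2 were listed at 0 in each table that holds them, and each shares part or all of its span with another gene of the set (Mest, Trappc9 and H13).

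**Figure D1:**
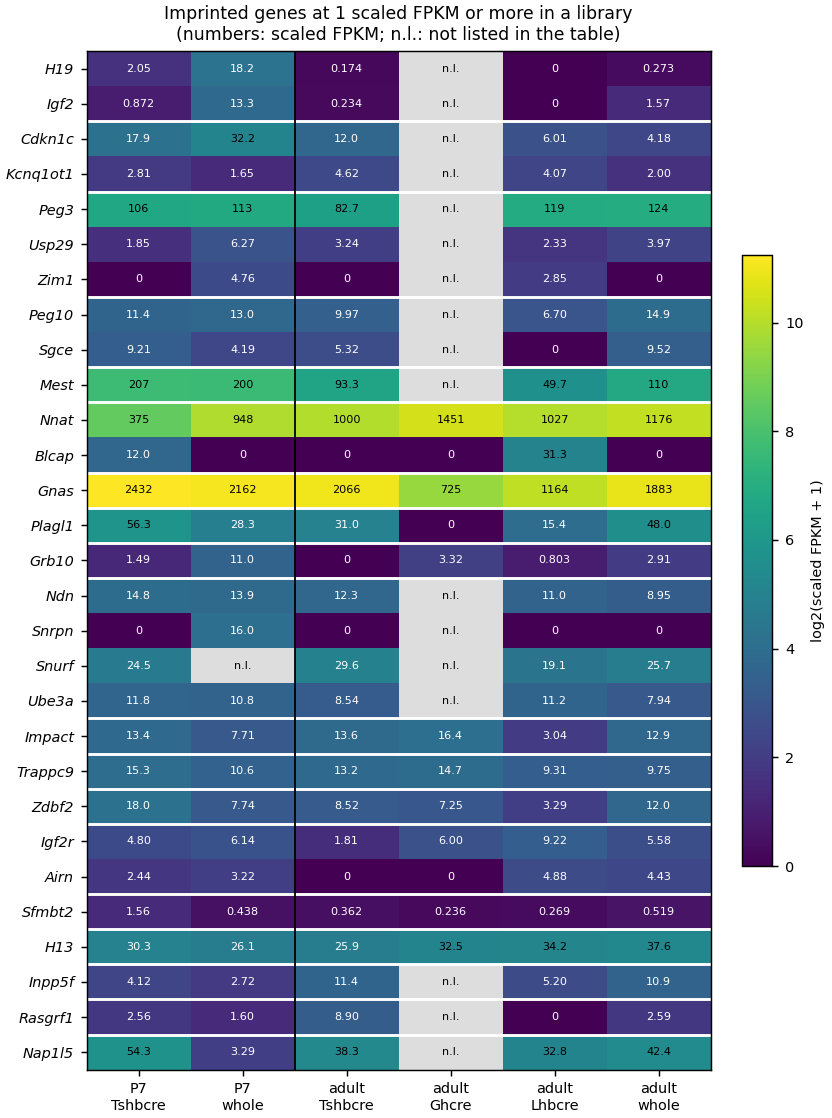
Scaled FPKM of the 29 genes that reached 1 scaled FPKM in any library, with rows grouped by imprinted cluster and columns by library (P7 left, adult right); colour is log2(scaled FPKM + 1) and n.l. means not listed. H19 and Igf2 stand out in the P7 whole column, at 18.2 and 13.3, while Gnas is high in every column.

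To ask which imprinted genes differ between the ages, the whole glands at P7 and in the adult were set side by side. H19, Igf2 and Cdkn1c, 3 growth genes of distal chromosome 7, were higher in the P7 gland. H19 was 15.1-fold higher, Cdkn1c 6.41-fold higher and Igf2 5.57-fold higher on the log2(scaled FPKM + 1) scale, which understates differences of low genes. In all, 6 of the 26 genes at 1 scaled FPKM or more in either library were 4-fold apart, against 6.59% of 15690 genes. Of the 6, 5 were higher, against 3.31% of all genes, and 1 was lower, against 3.28%. Among genes above 0 in both libraries the counts were 4 of 24, against 1.14% of all genes. The median log2 difference of the 26 genes was -0.02, against 0.02 over all genes, with 13 differences above 0 and 13 below.

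H19, the long non-coding RNA whose maternal expression shares enhancers with Igf2 (chr7:142129267-142131883, mm39), stood at 2.05 scaled FPKM in P7 Tshbcre cells, 18.2 in the P7 whole gland (deposited bounds 17.2 and 19.2), 0.174 in adult Tshbcre cells, 0 in Lhbcre cells and 0.273 in the adult whole gland (bounds 0.175 and 0.388). Igf2, the paternally expressed growth factor, was at 0.872 in P7 Tshbcre cells, 13.3 in the P7 whole gland (bounds 12.6 and 14.1), 0.234 in adult Tshbcre cells, 0 in Lhbcre cells and 1.57 in the adult whole gland (bounds 1.29 and 1.93). For both genes the P7 whole gland was far above the other 4 libraries that list them, and the bounds of the whole glands did not overlap.

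The Igf2 signal of both P7 libraries was assigned to NM_001315488.1, the RefSeq transcript of the most upstream of the 4 curated start sites, and this transcript held 83.1% of the annotated signal in the adult whole gland. In the tables that start lies 5545 bases from the next one, the same distance as between the matching starts in GRCm38.p6, which is how the promoter above was paired with it. The P7 whole table also held an assembled transcript without a name of 1486 nt in the Igf2 locus, at 11.5 scaled FPKM. With assembled transcripts added, Igf2 had 24.8 in the P7 whole gland, against 1.57 in the adult whole gland, a log2 difference of 3.33.

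Cdkn1c, the maternally expressed inhibitor of cyclin-dependent kinases known as p57, stood at 17.9 scaled FPKM in P7 Tshbcre cells, 32.2 in the P7 whole gland, 12.0 in adult Tshbcre cells, 6.01 in Lhbcre cells and 4.18 in the adult whole gland. Unlike H19 and Igf2 it was well above 1 in every sorted library that lists it. It was 2.52-fold higher in adult Tshbcre cells than in the adult whole gland, and 1.76-fold lower in P7 Tshbcre cells than in the P7 whole gland. Of its transcripts, NM_009876.4, NM_001354981.1 and XM_006508469.5 passed 5 scaled FPKM in some library. They were at 14.3, 9.98 and 7.92 in the P7 whole gland and 0.836, 0.728 and 0.695 in the adult whole gland, and NM_009876.4 took all of the signal in Lhbcre cells. Its neighbour Kcnq1ot1, the long non-coding RNA that silences that cluster on the paternal copy, ranged between 1.65 in the P7 whole gland and 4.62 in adult Tshbcre cells, and the host gene Kcnq1 was at 0 in the 5 tables that list it.

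Markers of mesenchymal cells and pericytes were highest in the same library as H19 and Igf2. The summed level of the 8 markers (Col1a1, Col3a1 and others) was 12.0 scaled FPKM in P7 Tshbcre cells, 280 in the P7 whole gland, 26.7 in adult Tshbcre cells, 28.5 in Lhbcre cells and 118 in the adult whole gland, with Lum at 0 in Lhbcre cells, and was 3.03 over the 5 listed in Ghcre cells, where Col3a1 was at 0. Between P7 Tshbcre cells and the adult whole gland, H19 (2.05 and 0.273) and Cdkn1c (17.9 and 4.18) were higher in the cells. Igf2 (0.872 and 1.57) and the sum of these markers were higher in the gland. These sums count annotated transcripts only. Among the 8 markers, Dcn was at 52.9 in the P7 and 7.36 in the adult whole gland. With assembled transcripts added Dcn was at 52.9 and 52.8, so the sums overstate its difference by age. The 8 endothelial markers summed to 5.63 in P7 Tshbcre cells (Kdr and Tek at 0), 110 in the P7 whole gland, 18.1 in adult Tshbcre cells, 38.6 in Lhbcre cells and 128 in the adult whole gland, and to 1.94 over the 4 listed in Ghcre cells. The 8 proliferation markers were higher at P7, summing to 39.5 in the P7 whole gland and 4.52 in the adult whole gland, and to 21.7 in P7 Tshbcre cells and 2.32 in adult Tshbcre cells, where Mki67 and Aurkb were at 0. Between the whole glands, the 3 lactotrope markers summed to 93.9 at P7 and 17624 in the adult. The part of these cells in the levels of H19, Igf2 and Cdkn1c was not tested, and in bulk RNA fewer cells of a type and less RNA per cell cannot be told apart.

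**Figure D2:**
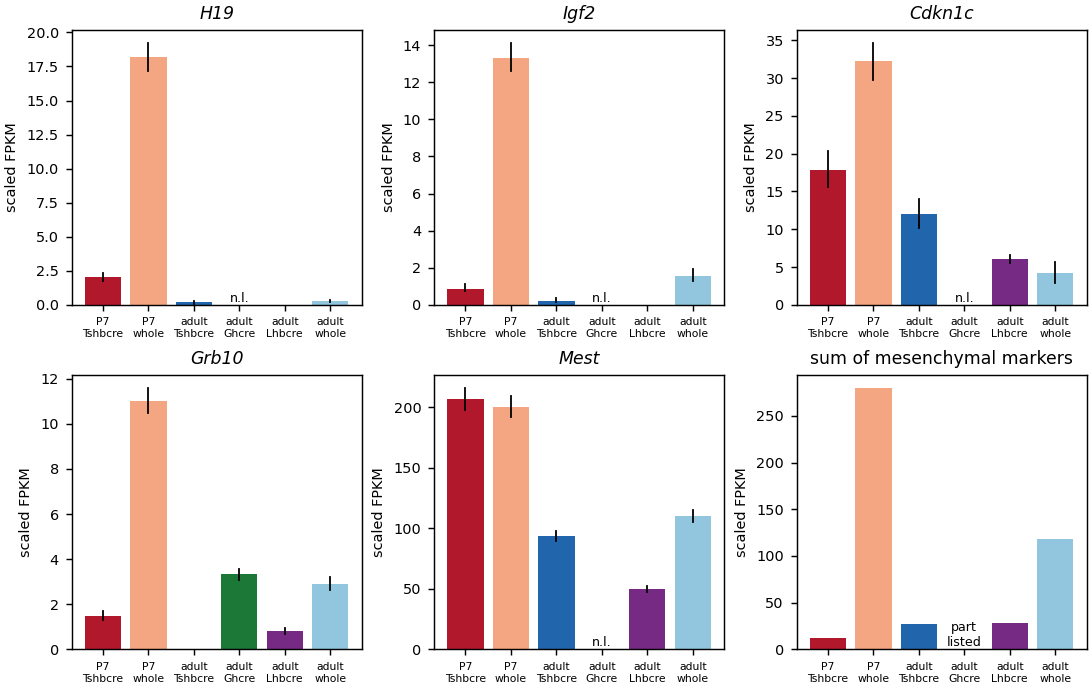
Scaled FPKM of H19, Igf2, Cdkn1c, Grb10 and Mest by library, with black lines for the deposited bounds, and the summed level of 8 mesenchymal and pericyte markers. H19, Igf2, Grb10 and the markers peak in the P7 whole gland (18.2, 13.3, 11.0 and 280), whereas Mest is about as high in P7 Tshbcre cells (207) as in the P7 whole gland (200).

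Between the whole glands the other genes of the growth axis differed less by age. Grb10, an adaptor that restrains insulin and IGF receptors, stood at 1.49 scaled FPKM in P7 Tshbcre cells, 11.0 in the P7 whole gland, 0 in adult Tshbcre cells, 3.32 in Ghcre cells, 0.803 in Lhbcre cells and 2.91 in the adult whole gland. The P7 whole gland held the most, 3.08-fold over the adult whole gland, or 1.69-fold with assembled transcripts of the locus added. Igf2r, the receptor that clears IGF2 from the cell surface, ranged between 1.81 in adult Tshbcre cells and 9.22 in Lhbcre cells, and was at 6.14 in the P7 whole gland and 5.58 in the adult whole gland. Airn, the non-coding RNA that overlaps Igf2r and silences it on the paternal copy, was at 2.44 in P7 Tshbcre cells, 3.22 in the P7 whole gland, 4.88 in Lhbcre cells and 4.43 in the adult whole gland, and at 0 in adult Tshbcre and Ghcre cells.

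Mest, a paternally expressed gene of the hydrolase family, stood at 207 scaled FPKM in P7 Tshbcre cells (deposited bounds 198 and 216), 200 in the P7 whole gland (192 and 209), 93.3 in adult Tshbcre cells (89.1 and 97.5), 49.7 in Lhbcre cells (47.5 and 52.0) and 110 in the adult whole gland (105 and 115). Both P7 libraries were above all 3 adult libraries that list it. It was 2.20-fold higher in P7 than in adult Tshbcre cells and 1.82-fold higher in the P7 than in the adult whole gland, under the 4-fold threshold in each. Plagl1, a paternally expressed zinc finger gene linked to growth, was at 56.3 in P7 Tshbcre cells, 28.3 in the P7 whole gland, 31.0 in adult Tshbcre cells, 15.4 in Lhbcre cells and 48.0 in the adult whole gland, so its order by age differed between sorted cells and whole glands. It was listed at 0 in Ghcre cells, although 2 assembled transcripts of 38.6 and 48.3 scaled FPKM lay in the locus that it shares with Hymai.

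Zim1, Snrpn and Nap1l5 completed the genes that were 4-fold apart between the whole glands, and each of these 3 depended on how transcripts were named or assembled. Zim1, a zinc finger gene beside Peg3, was at 4.76 in the P7 whole gland and 2.85 in Lhbcre cells and was listed at 0 in P7 Tshbcre cells, adult Tshbcre cells and the adult whole gland. With assembled transcripts added it was at 10.8 in the P7 and 7.04 in the adult whole gland, and with all such transcripts counted 4 of 27 genes were apart, against 5.02% of all genes. Nap1l5, a gene related to nucleosome assembly proteins, was at 54.3 in P7 Tshbcre cells, 3.29 in the P7 whole gland, 38.3 in adult Tshbcre cells, 32.8 in Lhbcre cells and 42.4 in the adult whole gland. Its P7 whole value carries the status FAIL in the deposited table, and with the assembled transcript of 1895 nt, which carries that status too, it stood at 27.2.

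Snrpn and Snurf are read from 1 transcript, which encodes a splicing protein and a small upstream protein. Snrpn was listed at 16.0 scaled FPKM in the P7 whole gland and at 0 in the other tables that list it, while Snurf was at 24.5 in P7 Tshbcre cells, 29.6 in adult Tshbcre cells, 19.1 in Lhbcre cells and 25.7 in the adult whole gland and is not listed in the P7 whole table. The transcripts behind these values have the same start, end and length (2020 nt) under both names. Summed over both names the locus had 16.0 in the P7 and 25.7 in the adult whole gland, 1.57-fold lower at P7, so the call of Snrpn as higher did not hold. With the names summed, 5 genes were 4-fold apart, and with assembled transcripts added as well the 3 that were left were H19, Igf2 and Cdkn1c.

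The Tshbcre libraries of both ages were then set side by side to ask whether the ages differ within cells sorted by 1 driver. The 2 libraries also differed in markers of other cell types. Prl was at 21.7 in P7 and 6546 in adult Tshbcre cells, Gh at 3870 and 14806, and Lhb at 1278 and 2904. The 6 immune markers summed to 3.13 and 32.8, while Tshb went the other way, at 3001 and 1075. The part of other cell types in the differences below was not tested. Here 1 of 26 genes was 4-fold apart, against 8.21% of 16029 genes, and that gene was Blcap, which was listed at 0 in adult cells. Of the 23 genes above 0 in both libraries 0 were, against 1.31% of all genes. The median log2 difference of the genes was 0.39 and that of all genes 0.02, with 19 of the 26 differences above 0. H19 was 2.60-fold higher at P7 and Igf2 was under 1 scaled FPKM at both ages. Nnat was 2.66-fold lower and Cdkn1c 1.45-fold higher.

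**Figure D3:**
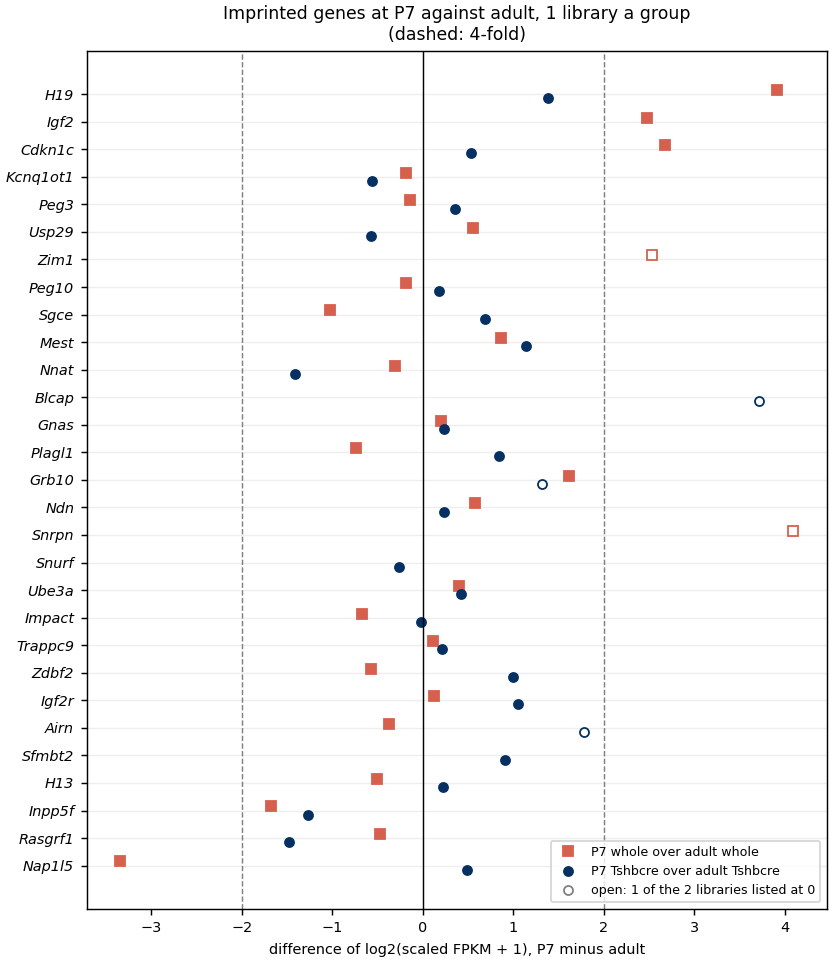
Difference of log2(scaled FPKM + 1), P7 minus adult, for each gene at 1 scaled FPKM or more in either library, in the whole glands (squares) and in Tshbcre cells (circles); open symbols have 1 library listed at 0. H19, Igf2 and Cdkn1c lie past the 4-fold line in the whole glands (3.91, 2.48 and 2.68), and H19 and Cdkn1c lie inside it in Tshbcre cells (1.38 and 0.53).

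With transcripts without a name counted, 3 of 28 genes were 4-fold apart between P7 and adult Tshbcre cells, against 5.66% of all genes, and Peg10 and Rasgrf1 joined Blcap. Peg10, a gene domesticated from a retrotransposon, was at 11.4 scaled FPKM in P7 Tshbcre cells, 13 in the P7 whole gland, 9.97 in adult Tshbcre cells, 6.70 in Lhbcre cells and 14.9 in the adult whole gland, a narrow range. The P7 Tshbcre table also held 2 assembled transcripts in its locus, of 6305 nt at 66.1 and of 6613 nt at 23.5 scaled FPKM, while the adult Tshbcre table held 1 of 6335 nt at 10.5. With these added, Peg10 stood at 101 in P7 Tshbcre cells and 20.5 in adult Tshbcre cells, 4.75-fold higher. Rasgrf1, a Ras guanine nucleotide exchange factor, was at 2.56 in P7 and 8.90 in adult Tshbcre cells, and at 3.68 and 31.9 with assembled transcripts added, 7.03-fold lower at P7.

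Sorted cells were then compared with whole glands of the same age. At P7, 7 of 28 genes were 4-fold apart in Tshbcre cells against the whole gland, against 9.38% of all genes. Of these 2 were higher, against 3.26% of all genes, and 5 lower, against 6.11%, and among genes above 0 in both libraries the count was 4 of 25, against 3.16%. H19 was 6.29-fold lower, Igf2 7.66-fold lower and Grb10 4.83-fold lower in the sorted cells, beside the mesenchymal and endothelial markers given above. Marker sums of several other cell types were lower in the sorted cells too. The 5 erythroid markers summed to 202 in P7 Tshbcre cells and 1938 in the P7 whole gland. In the same order, 4 corticotrope markers summed to 83.8 and 1442, with Avpr1b at 0 in the cells. The 6 immune markers summed to 3.13 and 25.1, with Csf1r at 0 in the gland. Sums were 9.80 and 39.3 for 3 melanotrope markers, and 0.749 and 10.8 for 4 posterior lobe markers. The 6 gonadotrope markers went the other way, summing to 11361 in P7 Tshbcre cells and 1167 in the P7 whole gland. They include Cga, with Lhb at 1278 and 312, Fshb at 482 and 85.1, and Nr5a1 and Foxl2 at 0 in the cells. The part of these cell types in the differences was not tested. Zim1 and Snrpn were listed at 0 in the sorted cells, and Blcap and Nap1l5 were the genes counted as higher. With assembled transcripts added 4 of 28 genes were apart, against 7.59% of all genes, and with the Snrpn and Snurf names summed as well 3 were, namely H19, Igf2 (1.59 in P7 Tshbcre cells and 24.8 in the P7 whole gland, 9.96-fold lower) and Blcap. Most of the other genes stood close to the whole gland: Peg3 was 1.06-fold lower, Mest 1.03-fold higher and Gnas 1.12-fold higher.

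The 3 adult sorted libraries were each compared with the same adult whole gland, so these comparisons share it, as does the comparison of the whole glands by age. In Tshbcre cells 1 of 24 genes was 4-fold apart, against 7.06% of all genes, and that gene was Airn, listed at 0. In Ghcre cells 2 of 10 genes were, against 9.80%, and both, Plagl1 and Airn, were listed at 0. In Lhbcre cells 2 of 26 genes were, against 9.31%, with Sgce listed at 0 and Blcap higher. Among genes above 0 in both libraries, 0 genes of the set were 4-fold apart in these 3 comparisons, where 1.44%, 2.79% and 2.43% of all genes were. With assembled transcripts added, 0 of 25 genes were apart in Tshbcre cells, 1 of 11 in Ghcre cells and 2 of 26 in Lhbcre cells, against 4.98%, 7.59% and 6.77% of all genes. The 1 in Ghcre cells was Plagl1, which could not change, because its locus also holds Hymai and nothing was added to it. The 2 in Lhbcre cells were Blcap and Rasgrf1. The summed Rasgrf1 value was 139 in Lhbcre cells and 8.20 in the adult whole gland, 15.2-fold higher. Its annotated transcripts were listed at 0 in Lhbcre cells. The 139 adds 2 assembled transcripts that lie side by side at chr9:89791565-89797900 (mm39), in a locus that runs to 89909032. Whether they are pieces of 1 transcript, which the sum would count 2 times, or belong to Rasgrf1 mRNA was not tested.

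In Lhbcre cells 11 of 26 genes were 2-fold apart, against 28.9% of all genes. Of these 2 were higher, against 13.6%, and 9 lower, against 15.3%, and the median log2 difference was -0.39, against 0.00 over all genes. Adding assembled transcripts gave a median of -0.08, against -0.04 over all genes, and 19 of the 26 genes were within 2-fold. Of the 9 lower genes, Igf2, Peg10, Mest and Zdbf2 were then still 2-fold lower, at unchanged values. Plagl1 was too, but nothing could be added to it, because its locus also holds Hymai. Sgce and Grb10 were within 2-fold at 1.59-fold and 1.40-fold lower, and Impact and Rasgrf1 were 1.80-fold and 15.2-fold higher. From annotated transcripts Plagl1 was 2.99-fold lower, Mest 2.18-fold lower and Peg10 2.06-fold lower, and Zdbf2, a large paternally expressed zinc finger gene, was 3.04-fold lower. Zdbf2 was at 18 scaled FPKM in P7 Tshbcre cells, 7.74 in the P7 whole gland, 8.52 in adult Tshbcre cells, 7.25 in Ghcre cells, 3.29 in Lhbcre cells and 12.0 in the adult whole gland. In adult Tshbcre cells 6 of 24 genes were 2-fold apart, against 20.6% of all genes.

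Gnas and Nnat, the genes of the set with the most signal, divided it differently between transcript forms. Gnas encodes the stimulatory G protein alpha subunit that links hormone receptors to cyclic AMP. It stood at 2432 scaled FPKM in P7 Tshbcre cells, 2162 in the P7 whole gland, 2066 in adult Tshbcre cells, 725 in Ghcre cells, 1164 in Lhbcre cells and 1883 in the adult whole gland. Ghcre and Lhbcre cells held the least, 2.60-fold and 1.62-fold lower than the adult whole gland. These differences depend on the scaling, whose factors were 0.758 for Ghcre cells and 1.10 for the adult whole gland. With equal summed FPKM the factors were 0.373 and 1.45, and Gnas was then not lower in Ghcre cells.

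The Gnas signal was assigned to transcripts from different starts that share their 3′ end. XM_006498777.2, which starts furthest upstream of the Gnas transcripts given here, was at 1530, 1358, 1383, 304, 451 and 1209 scaled FPKM in P7 Tshbcre, P7 whole, adult Tshbcre, Ghcre, Lhbcre and adult whole libraries. It made up 62.8% to 66.9% of the gene in 4 of these and 42.0% in Ghcre and 38.7% in Lhbcre cells. NM_001310083.1 was at 73.7 in Ghcre cells and 77.6 in Lhbcre cells and at 0 in the other 4 libraries. NR_003258.2 ranged between 203 in Ghcre and 460 in P7 Tshbcre cells, and NM_201616.3 between 144 and 441 in the same libraries.

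Nnat encodes neuronatin, a small membrane protein of the endoplasmic reticulum that is expressed from the paternal copy. It stood at 375 scaled FPKM in P7 Tshbcre cells (deposited bounds 358 and 391), 948 in the P7 whole gland (909 and 988), 1000 in adult Tshbcre cells (956 and 1043), 1451 in Ghcre cells (1390 and 1512), 1027 in Lhbcre cells (984 and 1071) and 1176 in the adult whole gland (1125 and 1226). P7 Tshbcre cells were the lowest and Ghcre cells the highest. The rank of Ghcre cells depends on the scaling given above for Gnas. In FPKM as deposited, Nnat was lower in Ghcre cells than in either whole gland. The short form without the 81-base exon printed above made up 51.3% of the gene in Ghcre cells, 58.9% in Lhbcre cells, 21.2% in adult Tshbcre cells and 21.4% in the adult whole gland, and was at 0 in both P7 libraries. The long form was at 375 and 948 in the P7 Tshbcre and P7 whole libraries and at 788, 707, 422 and 924 in the adult Tshbcre, Ghcre, Lhbcre and adult whole libraries. For Nnat and Gnas the split between forms is the deposited assignment of fragments. Reads over single exons or junctions were not examined, so a form at 0 is not shown to be absent.

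**Figure D4:**
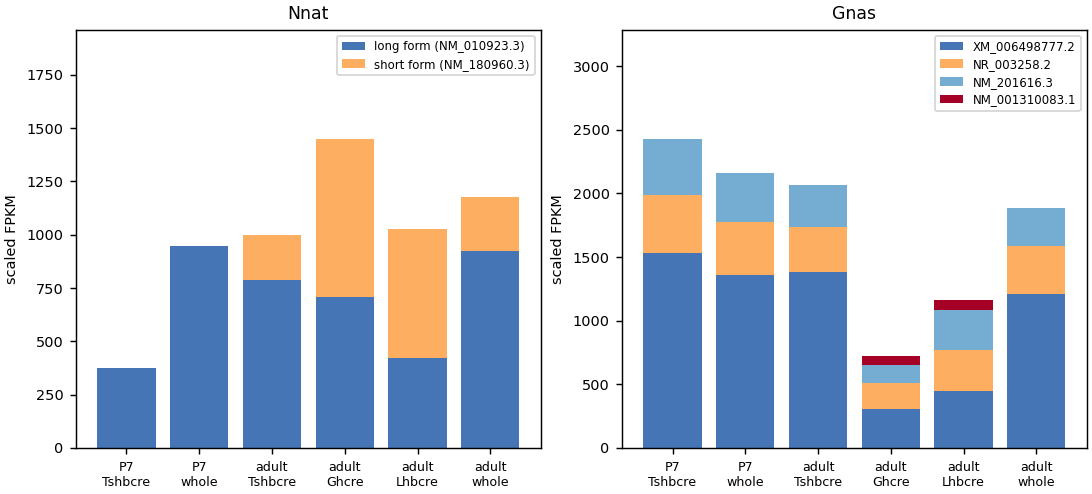
Scaled FPKM of the transcript forms of Nnat and Gnas, stacked by library. The short Nnat form was assigned signal in the 4 adult libraries (212 to 744) and is at 0 in both P7 libraries. The Gnas transcript NM_001310083.1 was assigned signal in Ghcre and Lhbcre cells only (73.7 and 77.6).

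Blcap, in whose intron Nnat lies, was at 12.0 scaled FPKM in P7 Tshbcre cells and 31.3 in Lhbcre cells and listed at 0 in the other 4 tables. A value of 0 in these tables was not read as absence. Peg3, a zinc finger gene with a narrow range, was at 106 in P7 Tshbcre cells, 113 in the P7 whole gland, 82.7 in adult Tshbcre cells, 119 in Lhbcre cells and 124 in the adult whole gland. Its transcripts NM_008817.2, XM_017322030.3 and XM_036152773.1 were at 54.2, 39.2 and 19.2 in the P7 and 50.6, 35.7 and 38.0 in the adult whole gland, and all 3 carry the status FAIL in the P7 whole table.

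Ndn, which encodes necdin, was at 14.8 scaled FPKM in P7 Tshbcre cells, 13.9 in the P7 whole gland, 12.3 in adult Tshbcre cells, 11.0 in Lhbcre cells and 8.95 in the adult whole gland. Ube3a, a ubiquitin ligase of the same Prader-Willi and Angelman region, was at 11.8 in P7 Tshbcre cells, 10.8 in the P7 whole gland, 8.54 in adult Tshbcre cells, 11.2 in Lhbcre cells and 7.94 in the adult whole gland. Neither was 2-fold apart in any comparison. The non-coding hosts of small nucleolar RNAs in that region were near 0, with Snhg14 reaching 0.932 in P7 Tshbcre cells.

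H13, a signal peptide peptidase gene, was at 30.3 scaled FPKM in P7 Tshbcre cells, 26.1 in the P7 whole gland, 25.9 in adult Tshbcre cells, 32.5 in Ghcre cells, 34.2 in Lhbcre cells and 37.6 in the adult whole gland. Its 4 transcripts over 5 scaled FPKM divided this unevenly, XR_374416.3 leading in every library at 11.9 to 20.6. Trappc9, a vesicle trafficking subunit, was at 15.3 in P7 Tshbcre cells, 10.6 in the P7 whole gland, 13.2 in adult Tshbcre cells, 14.7 in Ghcre cells, 9.31 in Lhbcre cells and 9.75 in the adult whole gland. Its signal moved between transcripts, NM_180662.2 taking all of it in the P7 whole gland and adult Tshbcre cells and none in P7 Tshbcre or Ghcre cells. Impact, a regulator of translation on chromosome 18, was at 13.4 in P7 Tshbcre cells, 7.71 in the P7 whole gland, 13.6 in adult Tshbcre cells, 16.4 in Ghcre cells, 3.04 in Lhbcre cells and 12.9 in the adult whole gland. Lhbcre cells were lowest for both genes, but with assembled transcripts added they were highest for both, at 17.4 for Trappc9 and 32.9 for Impact.

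Inpp5f, an inositol phosphatase gene, was at 4.12 scaled FPKM in P7 Tshbcre cells, 2.72 in the P7 whole gland, 11.4 in adult Tshbcre cells, 5.20 in Lhbcre cells and 10.9 in the adult whole gland. Both P7 libraries were below the adult ones, but with assembled transcripts added P7 Tshbcre cells were at 13.8 and adult Tshbcre cells at 11.4. Sgce, which encodes epsilon-sarcoglycan, was at 9.21 in P7 Tshbcre cells, 4.19 in the P7 whole gland, 5.32 in adult Tshbcre cells, 0 in Lhbcre cells and 9.52 in the adult whole gland, and at 7.19 to 15 with assembled transcripts added. Usp29 ranged between 1.85 and 6.27, and Sfmbt2 between 0.236 and 1.56.

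**Figure D5:**
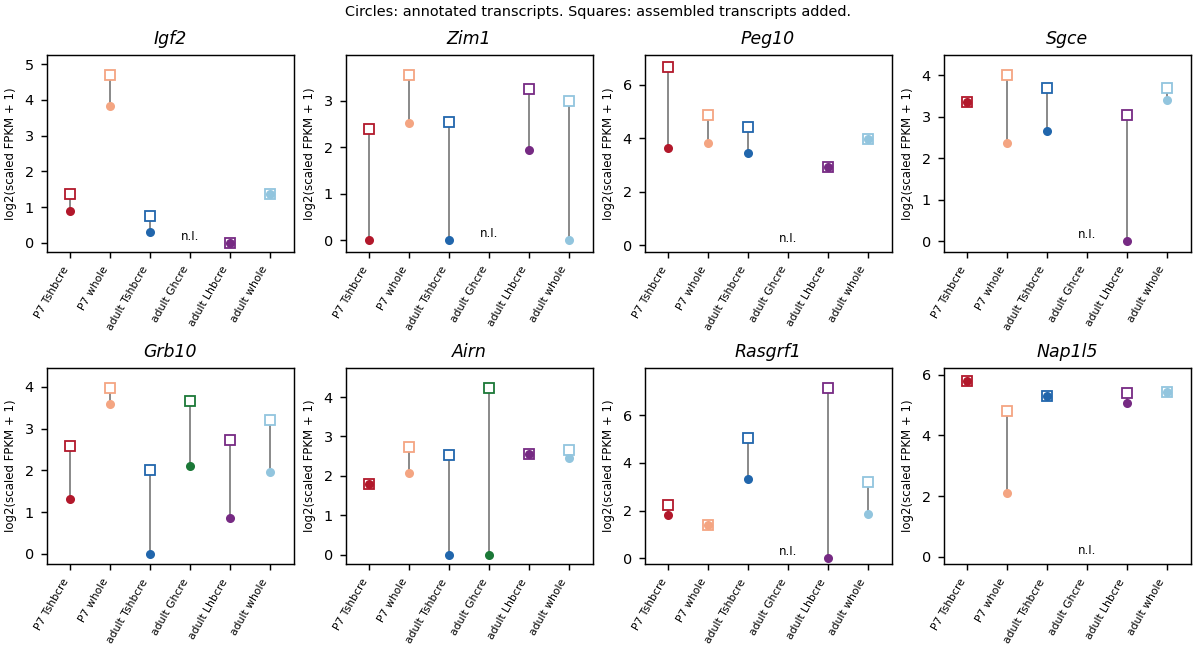
log2(scaled FPKM + 1) of 8 genes by library, from annotated transcripts (circles) and with assembled transcripts of 200 nt or more in the locus added (squares). The zeros of Zim1, Sgce, Grb10 and Airn disappear, Nap1l5 in the P7 whole gland moves to 27.2, and Igf2 is highest in the P7 whole gland either way.

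The partners of these genes were described from lists. Among 11 measured IGF receptors, binding proteins and partners, 0 were 4-fold higher and 1 lower in the P7 than in the adult whole gland. Of all genes, 3.31% were higher and 3.28% lower. The median log2 difference of the partners was -0.13, against 0.02 over all genes. The lower partner was Pappa2, a protease that cleaves IGF binding proteins, at 3.36 in the P7 and 18.7 in the adult whole gland. Igf1r, the receptor that carries the IGF2 signal, was at 11.0 in P7 Tshbcre cells, 14.1 in the P7 whole gland, 13.5 in adult Tshbcre cells, 10.7 in Lhbcre cells and 19.8 in the adult whole gland. In P7 Tshbcre cells 3 of 11 partners were 4-fold lower than in the P7 whole gland, against 6.11% of all genes. They were the IGF binding proteins Igfbp4 (1.34 in the cells and 51.7 in the gland), Igfbp2 (7.28-fold lower) and Igfbp3 (7.23-fold lower). Igfbp2 stood at 1.83 in the cells once assembled transcripts were added, and 2 partners were 4-fold lower, where 7.59% of all genes were apart in either direction. The binding protein Igfbp5 was not lower there, at 207 in P7 Tshbcre cells and 114 in the P7 whole gland. It was at 148 in adult Tshbcre cells and 164 in the adult whole gland. Against the adult whole gland, 2 of 9 partners were lower in Tshbcre cells, Igfbp4 (6.83-fold) and Igfbp3 (6.17-fold). In Ghcre cells 4 of 6 were lower, with Igfbp5 at 7.46 in the cells and 164 in the gland (19.5-fold), Igfbp3 16.4-fold, Igfbp4 12.9-fold and Igfbp2 5.12-fold lower. In Lhbcre cells 3 of 9 were, namely Igfbp4 (9.17-fold), Igfbp5 (6.08-fold) and Pappa2, listed at 0. These counts were 3, 4 and 2 with assembled transcripts added. Of all genes, 7.06%, 9.80% and 9.31% were 4-fold apart in either direction in the same comparisons. With assembled transcripts added these shares were 4.98%, 7.59% and 6.77%.

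Of 15 measured genes that set or keep imprints, 3 were listed as 4-fold higher in the P7 than in the adult whole gland, against 3.31% of all genes. Another 1 was listed as 4-fold lower, against 3.28%. All 4 (Setdb1, Smchd1 and Eed higher, Ctcf lower) were at 0 in 1 library, and so they recur where those libraries are used: Setdb1, Smchd1 and Eed are counted as higher in adult Tshbcre and Lhbcre cells, Setdb1 and Smchd1 in Ghcre cells, and Ctcf in P7 Tshbcre cells. In each of the 6 comparisons 0 were apart with assembled transcripts added. Zfp57, named here because its motif was searched above, was at 1.54 in the P7 and 0.555 in the adult whole gland.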

How the data were processed

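RNA from 4 sorted and 2 whole pituitary libraries was analysed, 1 library for each group, with groups taken from the labels. The deposited tables give an FPKM for each transcript, with its bounds and a status, computed by the authors; per the submitters' processing notes, the tools were FastQC, Bowtie2 and Cufflinks and the build was mm39. How strand was handled, and versions, are not given in the sources used here. In each table the deposited coverage signal is a constant multiple of FPKM, and that constant gave the relative depth; read numbers are unknown. FPKM were summed over the annotated transcripts of a gene name and divided by the median of ratios over 5808 genes at 1 FPKM or more in all 6 tables. Comparisons are differences of log2(scaled FPKM + 1). A gene counts as apart at 4-fold or more, if its larger value reaches 1 scaled FPKM. Assembled transcripts of 200 nt or more were added, as an alternative, where the locus held 1 named gene. The calls were tested on simulated data.

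The genes, the lists and the alternatives were chosen with earlier results of these data known. Genes 4-fold apart in any comparison, or at 10 scaled FPKM or more in any library, are given in every library, and the others by range. Of the lists of partners, imprint regulators and further imprinted genes, those 4-fold apart are named, up to 5 a list and comparison (Igf1r and Zfp57 for their roles). Markers of other cell types are given as sums beside the results that move with them, and 1 of these lists is not reported here. Transcripts are given singly where several reach 5 scaled FPKM. Python 3.11.15, pandas 2.3.3 and matplotlib 3.10.9 were used.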

Additional observations from a re-analysis of the deposited data

Results flagged for a closer look

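The tables hold assembled transcripts without a name in the loci of genes whose annotated transcripts are listed at 0, and the comparisons of annotated genes do not use them. No library serves as a control for this signal. In adult Tshbcre cells these summed to 4.86 scaled FPKM for Zim1, 3.05 for Grb10 and 4.73 for Airn. In P7 Tshbcre cells they summed to 4.25 for Zim1. In Lhbcre cells they summed to 7.19 for Sgce, 4.92 for Mcts2 and 139 for Rasgrf1. In Ghcre cells they summed to 86.8 for Plagl1 and 17.9 for Airn, and in the adult whole gland to 7.04 for Zim1. The Plagl1 locus also holds Hymai and the transcript counted for Mcts2 also covers a stretch of H13, inside which Mcts2 lies, so those sums belong to no single gene. The Rasgrf1 signal of Lhbcre cells came from 2 transcripts, of 949 nt at 80.7 and of 4124 nt at 58.0 scaled FPKM, against 1 of 4315 nt at 5.61 in the adult whole gland. The 2 do not overlap, so their sum counts a molecule 2 times if both are pieces of it.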

How the results depend on the processing

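Numbers below are counts of genes of the set that were 4-fold apart. With FPKM as deposited, adult Tshbcre against adult whole gave 2. A pseudocount of 0.1 gave 4 for P7 Tshbcre against adult Tshbcre, 3 for adult Tshbcre and 6 for Lhbcre against adult whole, and a 2-fold threshold gave 9, 6 and 11. At 2-fold, 20.6% of all genes were apart in adult Tshbcre and 28.9% in Lhbcre against adult whole. Shares of all genes are not given here for the other counts so far, so those counts do not show whether these genes moved more than others. Over genes above 0 in both libraries the counts were 0 for P7 Tshbcre against adult Tshbcre and for each adult sorted library, and 4 for P7 Tshbcre against P7 whole. With assembled transcripts added they were 3 for P7 Tshbcre against adult Tshbcre, 0 for adult Tshbcre, 1 for Ghcre and 4 for P7 Tshbcre against P7 whole. Summing Snrpn and Snurf as well gave 3 for P7 whole against adult whole, 3, 0, 1 and 3. The difference of Airn between Ghcre and adult whole turned to 1.58 on the log2 scale in both of these, and the cause was not tested. Of 19 single differences, 18 were still 4-fold under equal summed FPKM (Grb10 in P7 Tshbcre against P7 whole was at -1.99 on the log2 scale) and 11 with assembled transcripts. Equal sums put the median of all genes at 1.09 in Ghcre against adult whole and the share of higher calls at 79.2%, against 45.3% as reported, and put the median at 0.37, 0.36, 0.27 and 0.14 in Lhbcre against adult whole, P7 Tshbcre against adult Tshbcre, P7 Tshbcre against P7 whole and P7 whole against adult whole. In Lhbcre against adult whole the share of higher calls was then 52.7%, against 41.3%. Unscaled FPKM gave medians of -0.46 for Ghcre, -0.16 for Lhbcre, -0.14 for adult Tshbcre and 0.32 for P7 whole against adult whole and of -0.47 for P7 Tshbcre against P7 whole, with 24.6% of calls higher there, against 34.8%. Settings that sum Snrpn and Snurf or leave out genes with the status FAIL were chosen after seeing the data. No paired analysis was possible because each group is 1 library. Depth limits low genes, and no value has a replicate.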

Other observations

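Of 47 further imprinted genes, named in a list apart from the 39, 42 were listed in the tables. Between the whole glands 0 of 25 measured genes were 4-fold apart, against 6.59% of all genes, and the median log2 difference was -0.13. In P7 Tshbcre cells 2 of 27 were higher and 2 lower than in the P7 whole gland, where 9.38% of all genes were apart. Kcnk9, a potassium channel gene, was at 54.9 scaled FPKM in P7 Tshbcre cells and 4.22 in the P7 whole gland, 10.7-fold higher, and at 29.0 in adult Tshbcre cells, 6.41 in Ghcre cells, 3.48 in Lhbcre cells and 6.91 in the adult whole gland. Both Tshbcre libraries were above the other 4. Qpct, a glutaminyl cyclase gene, was at 13.8 in P7 Tshbcre cells and 1.17 in the P7 whole gland, or 4.36 there with assembled transcripts added. Pon2 and Ago2, lower than in both the P7 whole gland and adult Tshbcre cells, and Jade1, lower than in adult Tshbcre cells, were listed at 0 in P7 Tshbcre cells and stood at 5.36, 16.8 and 4.90 there with assembled transcripts added. Zrsr1 was listed at 0 in Lhbcre cells, and at 3.06 with such transcripts.

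Ndn had an assembled transcript of 1652 nt with the same scaled FPKM as its annotated one in each of the 5 tables that list it, so its level with assembled transcripts added was 17.9 to 29.6.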
